A study of Mus musculus with 8 samples.

Results

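The transcription factors that establish and maintain the hepatocyte programme were examined in the liver of female B6C3F1 mice after 3 weeks of furan. The set held 9 genes, chosen by name: the forkhead genes Foxa1, Foxa2 and Foxa3, the basic leucine zipper genes Cebpa, Cebpb and Creb3l3, the cut-homeodomain genes Onecut1 and Onecut2, and the prospero-related homeobox gene Prox1. All 9 were measured, among 24921 genes or transcripts in all. Furan was given by gavage at 8 mg per kg in corn oil on 21 days to 4 mice, whose livers are replicates 41, 42, 43 and 44. Another 4 mice, replicates 2, 3, 4 and 6, were given the corn oil vehicle alone in the same way. Mice were 5 to 6 weeks old at purchase, were acclimatised for at least 7 days and were killed 4 hours after the last dose. Furan is a volatile ring compound that arises in heated foods and injures the liver of rodents, where it also causes tumours. Each animal gave 1 array of RNA from snap-frozen whole liver, so all liver cell types contribute to each value, and lower RNA per cell cannot be told apart from fewer cells of a type.

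As background, FOXA proteins are pioneer factors that bind closed chromatin, and in mice Foxa1 and Foxa2 are together required for the liver to form. C/EBP alpha drives metabolic genes of the resting adult hepatocyte, whereas C/EBP beta is also a factor of the acute phase response and of regeneration. HNF6, the product of Onecut1, and its relative Onecut2 act in both hepatocytes and bile duct cells. Prox1 is needed for hepatoblasts to spread during development, and in adult liver it acts as a corepressor of bile acid synthesis genes. CREBH, the product of Creb3l3, is anchored in the endoplasmic reticulum and is released by cleavage in the Golgi to drive genes of fasting and lipid metabolism. These factors bind each other's genes, so the network is usually described as cross-regulated.

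The sequence before the start site is shown for the FOXA genes, because the only call among the 9 factors was in this family, and for Onecut1, because it varied most between animals. RefSeq windows of the build GRCm38.p6 matched 8 of the 9 genes, Onecut2 being the other, with 12 start sites in all. Each line gives the 250 bases before a start, 5′ to 3′ on the strand of the gene, and capitals mark every match to the motifs named in the next paragraph. The windows are chr12:57546112-57546361 on the minus strand for Foxa1, chr2:148046970-148047219 on the minus strand for 1 of 3 starts of Foxa2, chr7:19023540-19023789 on the minus strand for Foxa3 and chr9:74861671-74861920 on the plus strand for Onecut1.
Foxa1: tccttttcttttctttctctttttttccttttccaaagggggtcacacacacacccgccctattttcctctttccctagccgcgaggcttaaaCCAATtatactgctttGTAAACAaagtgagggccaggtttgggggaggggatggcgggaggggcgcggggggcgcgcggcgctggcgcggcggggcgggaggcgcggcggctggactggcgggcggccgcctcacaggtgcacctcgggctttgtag
Foxa2: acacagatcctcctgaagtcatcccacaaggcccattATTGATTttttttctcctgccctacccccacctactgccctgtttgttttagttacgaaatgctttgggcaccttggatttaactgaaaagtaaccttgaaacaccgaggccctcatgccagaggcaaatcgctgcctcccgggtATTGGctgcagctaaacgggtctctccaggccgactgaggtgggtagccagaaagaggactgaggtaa
Foxa3: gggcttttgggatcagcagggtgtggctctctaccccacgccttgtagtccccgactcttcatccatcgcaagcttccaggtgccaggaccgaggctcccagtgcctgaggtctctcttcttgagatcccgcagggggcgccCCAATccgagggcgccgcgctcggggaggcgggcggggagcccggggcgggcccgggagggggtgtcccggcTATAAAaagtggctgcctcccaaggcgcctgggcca
Onecut1: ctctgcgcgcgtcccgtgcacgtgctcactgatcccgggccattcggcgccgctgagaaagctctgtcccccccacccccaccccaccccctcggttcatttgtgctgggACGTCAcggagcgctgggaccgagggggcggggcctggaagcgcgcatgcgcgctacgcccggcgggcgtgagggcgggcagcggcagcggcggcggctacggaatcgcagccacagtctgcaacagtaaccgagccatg

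Both strands were searched for 7 short motifs in the 12 windows and in the same 250 bases of all 32851 RefSeq start windows. The forkhead core TGTTTAC, a form of the motif that FOXA proteins bind, was found in the Foxa1 window. It lay at positions -141 to -135 relative to the start, on the opposite strand, and in no other of the 12 windows. TGTTTAC was present in 3.17% of all windows. Other forms of the FOXA motif were not searched, so their presence in these windows is not known. The HNF6-type motif ATTGATT lay in the Foxa2 window shown and in 2.62% of all windows. The cyclic AMP response core TGACGT lay in the Onecut1 window and in 6.47% of all. A CCAAT box (CCAAT) was present in 4 of the 12 windows, those of Foxa1, Foxa3 and 1 start each of Foxa2 and Creb3l3, against 33.9% of all windows. A TATA box (TATAAA) was present in 4 of the 12, those of Foxa3, Cebpa and 1 start each of Foxa2 and Prox1, against 12.4%. The C/EBP motif TTGCNNAA was in 0 of the 12 windows and in 9.56% of all. The HNF1-type motif GTTAAT was in 1 window, at another start of Foxa2, and in 6.43% of all. None of these motifs overlapped another in the windows shown. A match is a string of letters and does not show that a factor binds there.

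Levels are processed signals on the log2 scale, set relative to the 75th percentile of the array, and changes are given as furan minus vehicle. Levels of different genes come from different probes and were not compared. The tissue label was checked against 23 hepatocyte genes, of which 22 were measured, each above background on all 8 arrays. The brightest were Alb and Serpina1a, the genes of albumin and alpha-1 antitrypsin. In the test between groups 0 of the 22 passed, against 4.18% of all features, and 2 had an unadjusted limma p under 0.05, against 23.8%. A second, dimmer probe of Cyp3a11, also on this list, was at 0.60 ± 0.12, against 0.28 ± 0.12 for the brighter one. It passed when probes were tested singly (limma adjusted p = 0.0429), as did 3.33% of all kept probes. The share of probe spots well above background ran from 55.1% to 86.2%, with vehicle replicate 2 at the top. The 8 arrays lay on 1 slide, in 4 columns that each held 1 furan and 1 vehicle array and 2 rows that each held 2 of each.

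Among the 9 factors, 1 rose after furan and 0 fell. This was Foxa1, at 1.32-fold (limma adjusted p = 0.0415). Over all features, 4.18% passed in either direction, 2.87% higher and 1.31% lower, and a single call among 9 genes says little about the set. All 9 factors were well above background on all 8 arrays. Of the 8 that did not pass, 5 had a positive and 3 a negative log2 fold change, and the median over the 9 was 0.21, against -0.09 over all features. With each array shifted to its median, the median of all features was 0.42 and that of the 9 factors 0.71, and each factor moved up by nearly the same amount as all features. Under that shift 77 features were higher and 1 was lower, against 714 higher and 327 lower in the values reported here.

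**Figure D1:**
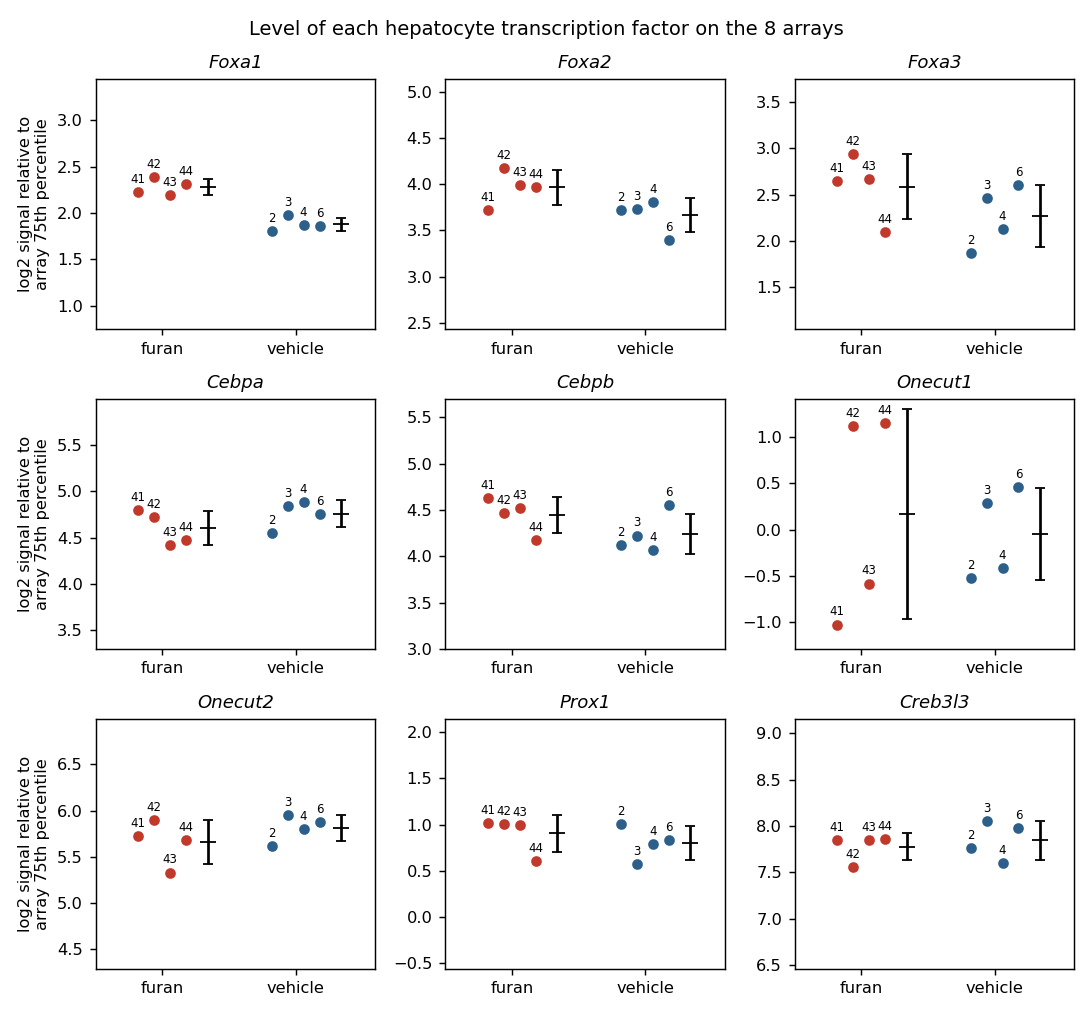
Level of each factor on each array, as log2 signal relative to the 75th percentile of the array, with furan arrays (red) left of vehicle arrays (blue). Points carry their replicate number, the bar is mean ± SD of 4 arrays, and all panels span the same number of log2 units; Foxa1 is the only panel in which the groups do not overlap, and Onecut1 has the widest spread.

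Foxa1 had levels of 2.23, 2.39, 2.19 and 2.32 in the livers of furan replicates 41, 42, 43 and 44, against 1.80, 1.98, 1.87 and 1.86 in vehicle replicates 2, 3, 4 and 6. All furan arrays lay above all vehicle arrays. The groups were separated in this direction for 10.8% of all features, and in either direction for 18.1%. The mean was 2.28 ± 0.09 in furan livers and 1.88 ± 0.07 in vehicle livers (SD, n = 4 each), a log2 change of 0.41 ± 0.08 (SE, limma adjusted p = 0.0415), with a 95% confidence interval of 1.16- to 1.52-fold. Its spread within groups was small, with only 2.97% of features having a smaller one.

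The Foxa1 call depended on the full set of arrays. It did not pass in any of the 8 fits that left out 1 array, although the log2 change stayed between 0.37 and 0.44. The limma adjusted p was 0.0994, 0.107, 0.0890 and 0.104 without furan replicates 41, 42, 43 and 44, and 0.0632, 0.0636, 0.0973 and 0.1004 without vehicle replicates 2, 3, 4 and 6. With the slide column as a block the adjusted p was 0.182, in a fit that called 0 features in all and had 4723 at an unadjusted p under 0.05, and with the slide row as a block it was 0.0567. Furan was higher in each of the 4 columns, by 0.53, 0.22, 0.42 and 0.45, and the log2 change was 0.42 within row 1 and 0.39 within row 2. Quantile normalization (0.0811), a median shift (0.518, at a log2 change of 0.91) and no filter on dim probes (0.130) also ended the call. It held with normexp (0.0486), with array weights (0.0238) and in the value table of the authors (0.0288).

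**Figure D2:**
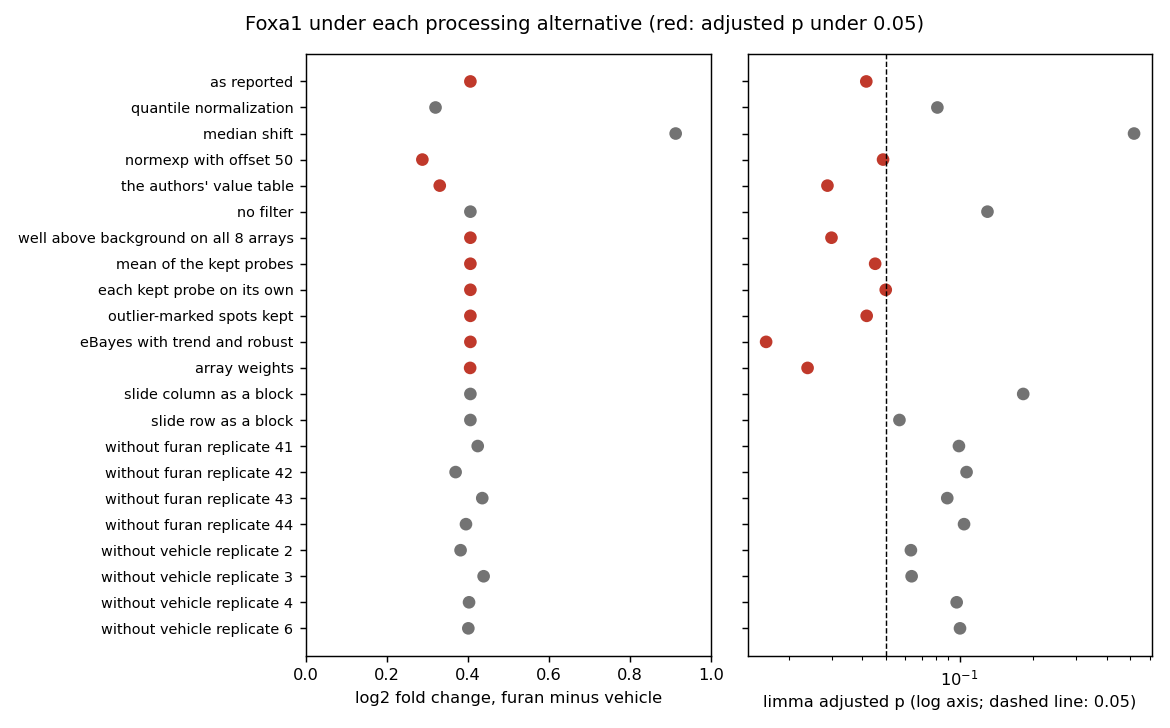
Foxa1 in the analysis as reported and in 21 alternatives, with the log2 fold change (furan minus vehicle) on the left and the limma adjusted p on a log axis on the right. The change is positive in each, between 0.29 and 0.91, and red points, those past an adjusted p of 0.05, are absent from all 8 fits without 1 array.

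The related gene Foxa2 had levels of 3.72, 4.18, 3.99 and 3.97 in furan replicates 41, 42, 43 and 44, against 3.72, 3.73, 3.81 and 3.40 in vehicle replicates 2, 3, 4 and 6. The groups overlapped because furan replicate 41 lay among the vehicle livers. A log2 fold change of 0.30 ± 0.13 (limma adjusted p = 0.216) was found, with an interval of 0.996- to 1.52-fold. A second, dimmer Foxa2 probe gave 0.17 ± 0.15 (0.490 as its adjusted p when probes were tested singly, a fit in which 3.33% of probes passed). Neither probe passed. For the brighter one, furan minus vehicle was 0.78, 0.25, 0.006 and 0.16 in the 4 slide columns.

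Foxa3, the third FOXA gene and one that is abundant in adult liver, had levels of 2.65, 2.94, 2.67 and 2.10 in furan livers 41 to 44, against 1.87, 2.47, 2.14 and 2.61 in vehicle livers 2, 3, 4 and 6. Furan replicate 44 was below 3 of the vehicle livers. The log2 fold change of 0.32 ± 0.22 did not pass (limma adjusted p = 0.381), and its interval of 0.874- to 1.78-fold held both no change and the change of Foxa1. All 3 FOXA genes thus had positive values, and 1 of them passed.

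Cebpa had levels of 4.79, 4.73, 4.42 and 4.48 in furan replicates 41, 42, 43 and 44, against 4.55, 4.84, 4.88 and 4.76 in vehicle replicates 2, 3, 4 and 6. The groups overlapped, with furan replicates 43 and 44 lowest of all arrays. Its log2 fold change was -0.15 ± 0.12 (limma adjusted p = 0.438), an interval of 0.738- to 1.1-fold, and it was 0.35 with a median shift.

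Cebpb had levels of 4.63, 4.47, 4.52 and 4.18 in furan livers and 4.12, 4.22, 4.07 and 4.55 in vehicle livers, in the same order of replicates. Furan replicate 44 lay with 3 of the vehicle livers, and vehicle replicate 6 with the other 3 furan livers. The log2 fold change of 0.21 ± 0.14 did not pass (limma adjusted p = 0.381), with an interval of 0.917- to 1.45-fold. The ratio of Cebpb to Cebpa within an array is not moved by a constant shift of the array. It was 0.36 higher on the log2 scale in furan than in vehicle livers (2-sided exact permutation p = 0.0857, n = 4 each, adjusted p = 0.441 over the 36 pairs compared).

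**Figure D3:**
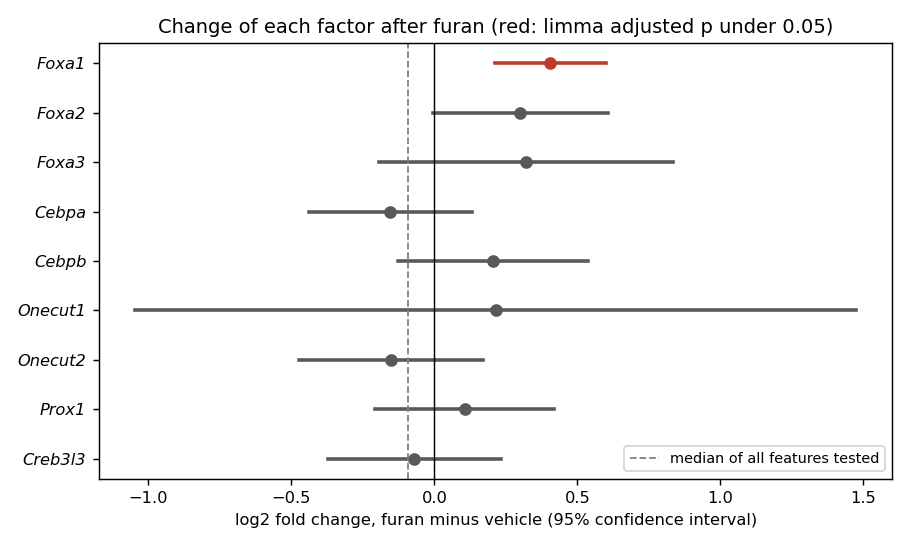
Log2 fold change of each factor, furan minus vehicle, with its 95% confidence interval from limma; the dashed line is the median of all features, -0.09. The Foxa1 interval, in red, is the only one of the 9 that lies wholly above 0, and that of Onecut1 is the widest.

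Onecut1 varied far more between animals than the other 8 factors. Its levels were -1.03, 1.12, -0.58 and 1.15 in furan replicates 41, 42, 43 and 44, against -0.53, 0.28, -0.41 and 0.46 in vehicle replicates 2, 3, 4 and 6. Furan replicates 42 and 44 were the highest of all arrays, and furan replicates 41 and 43 the lowest, so the furan group lay on both sides of the vehicle group. The SD was 1.13 in furan livers and 0.49 in vehicle livers (n = 4 each), and 92.4% of features had a smaller spread within groups. The log2 fold change was 0.21 ± 0.55 (limma adjusted p = 0.811), and its sign was negative without furan replicate 42 (-0.10) or 44 (-0.11). Its interval ran from 0.484- to 2.78-fold.

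Onecut2 had levels of 5.72, 5.89, 5.33 and 5.68 in furan livers 41 to 44, against 5.61, 5.95, 5.80 and 5.88 in vehicle livers 2, 3, 4 and 6. Furan replicate 43 was the lowest array, as it was among the low ones for Onecut1, and vehicle replicate 3 the highest. Its log2 fold change was -0.15 ± 0.14 (limma adjusted p = 0.488), and 0.35 with a median shift. Onecut3, the remaining gene of this family, was well above background on 0 of the 8 arrays.

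Prox1 had levels of 1.01, 1.00, 0.99 and 0.61 in furan replicates 41 to 44, against 1.01, 0.57, 0.79 and 0.83 in vehicle replicates 2, 3, 4 and 6. In furan livers, 3 values lay within a narrow band and replicate 44 lay apart. Its log2 fold change was 0.11 ± 0.14 (limma adjusted p = 0.624). Prox1 also marks lymphatic endothelium, and of 8 lymphatic endothelial markers 6 were measured and 0 passed, against 4.18% of all features. Of the 6, 1 had an unadjusted limma p under 0.05, against 23.8% of all features. The summed signal of the 6 overlapped between groups, at 8.82 to 12.3 times the 75th percentile of the array in furan livers and 11.6 to 15.4 times in vehicle livers. The brightest of them, Nrp2, was at -0.60 ± 0.17 (limma adjusted p = 0.0896) and passed in 2 of 13 other alternatives. Its furan arrays lay wholly below its vehicle arrays, as for 7.36% of all features.

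Creb3l3 had levels of 7.85, 7.56, 7.85 and 7.86 in furan replicates 41 to 44, against 7.76, 8.06, 7.60 and 7.98 in vehicle replicates 2, 3, 4 and 6. All 4 furan values lay within or just below the vehicle range. Its log2 fold change was -0.07 ± 0.13 (limma adjusted p = 0.738), with an interval of 0.772- to 1.17-fold, and was 0.44 with a median shift.

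Differences between factors within an array are not moved by a constant shift of the array, though quantile normalization and normexp can move them. All 36 pairs were compared by 2-sided exact permutation tests over the 8 arrays, for which the smallest possible p is 0.0286. The 3 pairs that reached it all had Foxa1 on one side. Foxa1 minus Cebpa was 0.56 higher in furan than in vehicle livers, Foxa1 minus Onecut2 0.56 higher and Foxa1 minus Creb3l3 0.48 higher. Of the 36 pairs, 0 were past an adjusted p of 0.05 (smallest 0.343). That limit could be passed only if many pairs reached the smallest possible p together, so the count says little. The 36 pairs were tested after the levels had been seen.

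Other tested genes with an ordinary symbol were ranked by how closely their levels, centred on their own mean, followed those of a factor over the 8 arrays. For Foxa1, the nearest were Rabl3 and Tmem223, with root mean square differences of 0.042 and 0.046 on the log2 scale. Neither of the pair passed the test between groups (limma adjusted p = 0.0572 for Rabl3 and 0.0569 for Tmem223). The same ranking was made for Onecut1 after its spread had been seen. The nearest were Nrep, at 0.24, and Cish, at 0.36, a cytokine-induced gene of the SOCS family. Cish had levels of 0.38, 3.02, 1.36 and 3.07 in furan replicates 41, 42, 43 and 44, against 1.27, 2.56, 2.31 and 2.36 in vehicle replicates 2, 3, 4 and 6. As for Onecut1, furan replicates 42 and 44 were the highest arrays for Cish, and furan replicate 41 was the lowest. Nrep had levels of -0.94, 0.85, -0.76 and 0.70 in furan livers and -0.66, 0.23, -0.10 and 0.71 in vehicle livers, again with replicates 41 and 43 lowest of all. The limma adjusted p of Nrep and Cish between groups was 0.922 and 0.877.

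**Figure D4:**
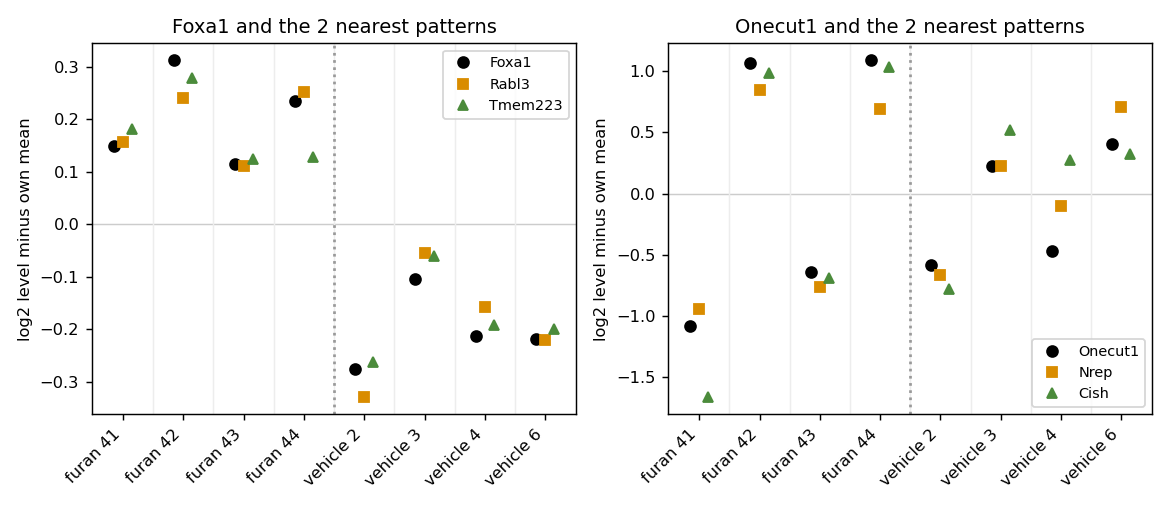
Log2 level minus the gene's own mean over the 8 arrays, for Foxa1 (left panel) and Onecut1 (right panel) and the 2 genes nearest to each; furan arrays stand left of the dotted line and vehicle arrays right of it. Foxa1, Rabl3 and Tmem223 are above 0 on all furan arrays and below 0 on all vehicle arrays, whereas Onecut1, Nrep and Cish are high in furan replicates 42 and 44 and low in 41 and 43.

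The wider network of hepatocyte factors was described by a list of 38 genes, of which 37 were measured. None of them passed the limma threshold (0 higher and 0 lower, against 4.18% of all features), 6 of 37 had an unadjusted p under 0.05, against 23.8% of all features, and the median log2 fold change was -0.05. The largest values that did not pass were those of Nr0b2, the bile acid-induced corepressor gene SHP, at 0.78 ± 0.43 (limma adjusted p = 0.296), and Foxo3, a forkhead factor restrained by insulin signalling, at -0.53 ± 0.37 (0.389). The limma call for Nr0b2 was past the threshold without vehicle replicate 2, at 1.21 (0.0369). Foxo3 was at 0.04 with normexp and at -0.20 without vehicle replicate 2.

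The gene of the nuclear receptor HNF4 alpha and the nuclear factor I gene Nfia, both chosen after their values were seen, had groups that did not overlap. Hnf4a had levels of 7.85, 7.88, 7.72 and 7.65 in furan livers and 7.44, 7.47, 7.55 and 7.41 in vehicle livers, a log2 fold change of 0.31 ± 0.09 (limma adjusted p = 0.0859) that passed with trend and robust (0.0335). Nfia had -1.10, -0.99, -1.27 and -1.27 in furan livers and -0.88, -0.74, -0.60 and -0.76 in vehicle livers, a log2 fold change of -0.41 ± 0.10 (limma adjusted p = 0.0654). Nfia passed with array weights (0.0379) and with the filter on all 8 arrays (0.0463), and was at 0.09 with a median shift. In the whole list, 3 genes lay wholly higher in furan livers and 2 wholly lower, against 10.8% and 7.36% of all features.

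Relatives of the 9 factors in the forkhead, C/EBP, CREB3 and ATF6, cut-homeodomain and prospero families were listed as 26 genes, and 24 were measured. Foxm1, a forkhead factor of dividing cells, was the 1 of 24 that rose, and 0 fell, against 4.18% of all features in either direction. It had levels of -1.57, -1.30, -1.21 and -0.86 in furan livers, against -2.46, -2.06, -2.41 and -2.62 in vehicle livers, a log2 change of 1.15 ± 0.18 (limma adjusted p = 0.0184). Its call ended without furan replicates 42 and 43 (0.0552 and 0.0643) and without vehicle replicates 4 and 6 (0.0552 and 0.0545), under quantile normalization (0.118), with a median shift (0.151), without the filter on dim probes (0.0591) and with the slide column as a block (0.124). The log2 change in the 4 fits without 1 array that lost the call was 1.08 to 1.17, and it was 1.67 under quantile normalization and 1.66 with a median shift. The median log2 fold change over the 24 relatives was 0.15. The largest values that did not pass were those of Foxp2, at -1.33 ± 0.72, which was above background on 1 furan and 3 vehicle arrays, and of Foxj2, at -0.71 ± 0.53 (limma adjusted p = 0.290 and 0.408). Without vehicle replicate 2, the array with the highest share of spots above background, Foxp2 was at -0.70 and Foxj2 at -0.20.

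Known targets of the factors, and genes of their processing or turnover, were listed in 4 overlapping groups. The groups together held 40 genes, 39 of them measured. Of these, 4 rose and 1 fell, against 2.87% and 1.31% of all features, and the median log2 fold change was -0.02. Mbtps2, a processing gene and not a target, was 1 of the 4 that rose. An unadjusted limma p under 0.05 was found for 13 of 39, against 23.8% of all features. The lists were drawn from general knowledge of liver, many of their genes answer to several factors, and none of the changes can be assigned to a factor from these data. Without the filter on dim probes, and with the slide column as a block, 0 of the 39 passed (limma).

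Of 13 CREBH target and processing genes, 12 were measured, and 3 rose and 0 fell, against 2.87% and 1.31% of all features. Creb3l3 itself did not pass. Fgf21, a hepatic hormone of fasting and stress, had levels of 1.16, -0.35, -0.16 and -0.55 in furan replicates 41 to 44, against -1.67, -1.63, -1.77 and -2.18 in vehicle replicates 2, 3, 4 and 6. It rose 3.58-fold, by 1.84 ± 0.36 (limma adjusted p = 0.0354), a call that held only without furan replicate 41 among the 8 fits without 1 array (0.0265) and reached 0.0923 without vehicle replicate 6. Cidec, a lipid droplet gene, had 1.13, -0.47, 0.56 and 0.25 in furan livers and -1.47, -1.01, -1.43 and -0.98 in vehicle livers. It rose 3.01-fold, by 1.59 ± 0.32 (limma adjusted p = 0.0379), with a second probe at 0.52. The Cidec call held only without furan replicate 42 among the fits without 1 array (0.0310) and reached 0.107 without furan replicate 43. Of 13 other alternatives, Cidec passed in 7, and with the mean of its probes the change was 1.06 (0.0783).

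Mbtps2, which encodes the site-2 protease that cleaves CREBH and other membrane-bound factors, had levels of -2.29, -2.31, -2.11 and -2.15 in furan livers and -2.51, -2.86, -2.64 and -2.84 in vehicle livers. It rose 1.41-fold, by 0.50 ± 0.11 (limma adjusted p = 0.0485), and among the fits without 1 array it passed only without vehicle replicate 2 (0.0356), reaching 0.126 without furan replicate 43. Of 13 other alternatives, Mbtps2 passed in only 3. Among those in which it did not pass were the authors' value table (0.0560) and trend and robust (0.101). The list median was -0.07. The hepcidin gene Hamp2, at -0.55 ± 0.38, and the gluconeogenic gene Pck1, at -0.32 ± 0.12, had the largest values that did not pass (limma adjusted p = 0.373 and 0.156). Pck1 was at 0.18 with a median shift and passed as lower under quantile normalization (-0.36, 0.0488), with normexp (-0.35, 0.0393), with array weights (-0.42, 0.0438) and in the value table of the authors (-0.46, 0.0197).

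Of 12 FOXA target genes, 12 were measured, and 1 rose and 1 fell, against 2.87% and 1.31% of all features. An unadjusted limma p under 0.05 was found for 5 of the 12, against 23.8% of all features. Afp, the gene of alpha-fetoprotein, a fetal counterpart of albumin, had levels of 0.83, 0.42, 2.06 and 1.51 in furan livers and -1.07, -0.96, -2.03 and -1.37 in vehicle livers. It rose 5.91-fold, by 2.56 ± 0.39 (limma adjusted p = 0.0177), and did not pass without furan replicates 41 and 44 (0.0503 and 0.0559) or vehicle replicate 6 (0.0536). Igfbp1, a secreted binder of insulin-like growth factors, had the largest positive value that did not pass, at 1.49 ± 0.46 (0.109), with 7.02, 5.40, 6.49 and 4.88 in furan livers and 4.75, 4.01, 4.30 and 4.81 in vehicle livers. Shbg, at -1.16 ± 0.78, was above background on 2 furan and 4 vehicle arrays (limma adjusted p = 0.369), and was at -0.43 without vehicle replicate 2. The list median was -0.06.

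Of 16 C/EBP target and turnover genes, all measured, 0 rose and 0 fell in limma, with a median log2 fold change of 0.01. An unadjusted limma p under 0.05 was found for 5 of the 16, against 23.8% of all features. The largest values were those of 2 acute phase genes. Lcn2 was at 1.18 ± 0.35 and Saa2 at 0.74 ± 0.17 (limma adjusted p = 0.0992 and 0.0555), each with furan arrays wholly above vehicle arrays, as were 10.8% of all features. The other acute phase genes of the list, named after their values were seen, did not pass either. Saa1 was at 0.73, Hp at -0.00088, Orm1 at -0.25 and Orm2 at -0.25. Saa2 passed with array weights (0.0416), with trend and robust (0.0178), with the filter on all 8 arrays (0.0337) and with the slide row as a block (0.0375), and Lcn2 with trend and robust (0.0457). Of 8 HNF6 and PROX1 target genes, 0 rose and 0 fell in limma. An unadjusted limma p under 0.05 was found for 2 of the 8, against 23.8% of all features. Cyp7a1, the rate-limiting enzyme of bile acid synthesis and a gene that Prox1 restrains, was at -0.69 ± 0.46 (0.364 as its adjusted p).

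**Figure D5:**
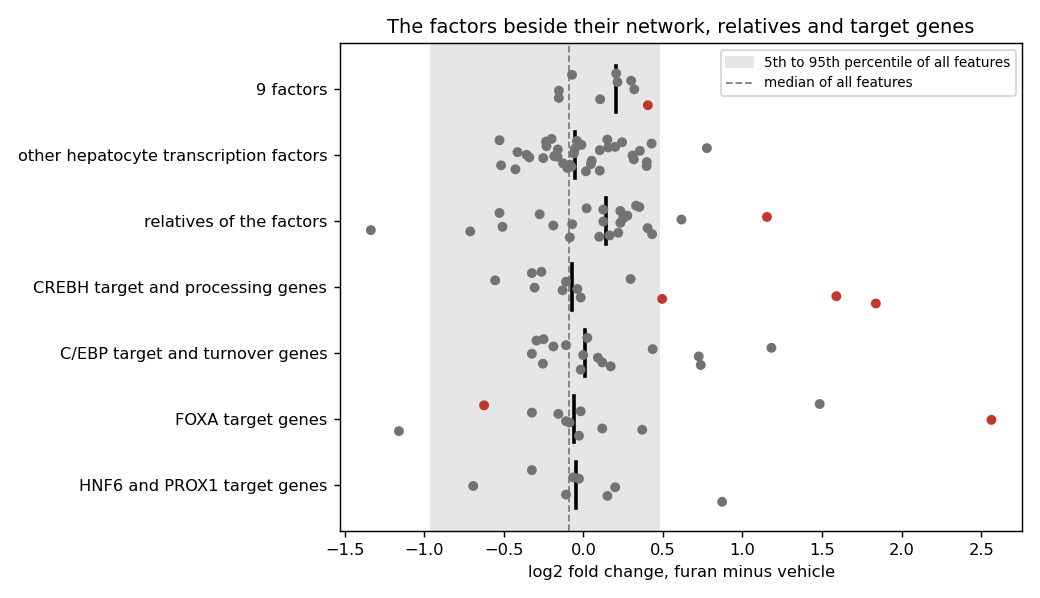
Log2 fold change, furan minus vehicle, of each measured gene in 7 lists, with a black bar at the list median and red for genes past a limma adjusted p of 0.05. The grey band runs from -0.96 to 0.47, the 5th to the 95th percentile of all features, and 9 of the 9 factors lie inside it.

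Other cell types that use these factors were checked by marker lists. Of 15 bile duct markers, 14 were measured, all above background on 8 arrays, and 1 rose, against 2.87% of all features. This was Prom1, which rose by 1.15 ± 0.15 (limma adjusted p = 0.0124), with a second probe at 0.66. The Prom1 call ended with a median shift (0.131), with the mean of its probes (0.0589) and with the slide column as a block (0.119). The summed signal of the 14 was 12.2 to 15.9 times the 75th percentile in furan livers and at most 10.6 times in vehicle livers, and without Prom1 it overlapped, at 5.47 to 10.4 and 7.10 to 7.93 times. Epcam and Krt7, at -0.93 ± 0.71 and -0.66 ± 0.55, did not pass, and without vehicle replicate 2 were at -0.23 and -0.14. Of 19 myeloid markers 15 were measured and 0 passed in limma, with 0 at an unadjusted p under 0.05, against 23.8% of all features. Their summed signal was 173 to 220 times in furan livers and 149 to 359 times in vehicle livers. Of 19 exocrine pancreas markers 10 were measured and 0 passed in limma, with 3 at an unadjusted p under 0.05, against 23.8% of all features. Their summed signal did not overlap between groups, at 8.90 to 12.1 times in furan livers and 13.2 to 16.1 times in vehicle livers. The brightest of these markers, Amy2a5, weighed most in this sum, and its own groups overlapped. It was at -0.48 ± 0.18 (limma adjusted p = 0.161), and no sum without it was made. Of the 10 genes, 2 lay wholly lower in furan livers and 0 wholly higher, against 7.36% and 10.8% of all features. Cpb1, Pnlip and Try4 were well above background on 0 arrays. The part of these cell types in the values of the 9 factors was not tested.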

How the data were processed

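Per the file headers, 1-colour scans of array design 028005 were read with Agilent Feature Extraction 11.0.1.1, which wrote for every spot a background-subtracted processed intensity and the median intensity of the spot and its surroundings. They also hold flags, coded as a score of 0 or 1. The value table deposited by the authors holds log2 values. How it was made is not given in the sources used. Its columns correlated across probes with the log2 median intensity of the same array at 0.998 for vehicle replicate 2 and 1.00 for the others.

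Of 62976 spots on each array, 3671 controls and 128 to 315 outlier-marked spots were left out, and 0 were saturated. Processed intensities were put on the log2 scale, the 75th percentile of each array was set to 0, and spots of a probe were averaged. Probes well above background on at least 4 of 8 arrays, 33848 of 55681, were kept, and each gene took its brightest kept probe. Symbols came from RefSeq accessions through a table for GRCm38.p6, which named 27235 of 28685 such probes.

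Groups were compared with limma 3.58.1 in R 4.3.3 (lmFit, eBayes, 2-sided, Benjamini-Hochberg over all 24921), at an adjusted p of 0.05. Blocks of the randomized design are not named in the labels, and treatment was the sole term of the fit. The fit was tested on simulated data in which 200 features changed. It recovered 13 of 67 changes of 1.5-fold, 35 of 67 of 2-fold and 56 of 66 of 4-fold, and made 5 false calls. The measured changes of the 9 factors were all smaller than 1.5-fold. The number of arrays limits the precision. Named genes were the 9 factors, from each list up to 4 past the threshold and the 2 largest not past it, the 2 brightest of each marker list, and the 2 patterns nearest to each factor past the threshold. Of the named genes, 2 target genes are counted in their lists but not reported here. The 9 factors and the lists were chosen with earlier results of these data known. Alternatives were other scalings, background correction, filters, probe rules, variance models, slide row or column as a block, thresholds and each array left out. Figures used Python 3.11.15 and matplotlib 3.10.9.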

Additional observations from a re-analysis of the deposited data

Results flagged for a closer look

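In 7 of 104 groups of 4 arrays, over 52 named genes, the farthest array's gap to the next exceeded Dixon's critical share of the group's range, a limit that chance passes in about 5% of groups. Among the 9 factors these were Prox1, where furan replicate 44 was at 0.61, and Creb3l3, where furan replicate 42 was at 7.56, each the lowest of its group. The others were Shbg and Epcam in vehicle replicate 2, at -1.14 and -0.53, Marco in vehicle replicate 4, at 4.92, Serpina1a in furan replicate 42, at 10.22, and Ptprc in furan replicate 41, at -1.21.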

How the results depend on the processing

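The number of factors past the threshold, 1 in the values reported, was 0 under quantile normalization, with a median shift, without the filter on dim probes, with the slide column or row as a block and at an adjusted p of 0.01, and 0 in each fit without 1 array. Over all features the count, 1041, was 78 with a median shift, 163 without the filter, 0 with the column block (limma, 4723 at an unadjusted p under 0.05), 1671 in the authors' value table, 1733 with the filter on all 8 arrays, 2001 with trend and robust, 2043 with array weights, 101 at an adjusted p of 0.01 and 2652 at 0.1, and 195 to 927 without 1 array. Of the other hepatocyte factors, with 0 calls, 2 passed in the authors' value table, with array weights and at 0.1, 1 with the filter on all 8 arrays and with trend and robust, and 0 to 1 without 1 array. Of the relatives, with 1 call, 0 passed with a median shift, without the filter, with the column block and at 0.01, 2 with normexp, the filter on all 8 arrays and trend and robust, 3 in the authors' value table, with array weights and at 0.1, and 0 to 1 without 1 array. Of the target, processing and turnover genes, with 5 calls, 2 passed with a median shift and 3 with the mean of probes. The count was 0 without the filter, with the column block and at 0.01, and 0 to 3 without 1 array. It was 8 with the filter on all 8 arrays and with array weights, 9 with trend and robust, and 10 at 0.1.

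Changes of sign touched 0 called values. With a median shift the log2 fold change was 0.35 for Cebpa, 0.35 for Onecut2, 0.44 for Creb3l3, 0.18 for Pck1, 0.18 for Hpd, 0.49 for Alb, 0.42 for Serpina1a, 0.23 for Ptprc, 0.44 for Cd5l, 0.42 for Csf1r, 0.025 for Amy2a5, 0.031 for Ctrb1, 0.42 for Nrep, 0.34 for Cish and 0.094 for Nfia. Quantile normalization gave 0.055 for Alb, 0.035 for Serpina1a and 0.019 for Nrep, and normexp 0.037 for Foxo3, 0.11 for Alb, 0.024 for Serpina1a and 0.016 for Nrep. Without 1 array, Onecut1 ranged from -0.11 to 0.61, Creb3l3 from -0.16 to 0.0017, Alb from -0.13 to 0.11, Cd5l from -0.24 to 0.21, Csf1r from -0.22 to 0.21, Nrep from -0.38 to 0.22 and Cish from -0.54 to 0.36. The median shift by its construction moves every gene by the same amount and took the median of all features to 0.42, against -0.09 in the values reported. The cause of the other shifts was not tested. No pairing by replicate number was made, because the groups share none. The slide column, with 1 furan and 1 vehicle array in each, served as a block instead. All 9 factors were above background on all 8 arrays, and 4 arrays in each group limit the precision of every value.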
